A study of Homo sapiens with 6 samples.

Results

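MER-named ERV1 loci are copies of class I endogenous retroviruses whose subfamily name starts with MER, an abbreviation of medium reiteration frequency repeat. They were taken from the transposable element (TE) tables as all loci of family ERV1 with such a name and a row in at least 1 of 6 libraries. This gave 10359 loci of 728165 TE loci, in 111 subfamilies that were grouped by number into 25 series, such as MER4 or MER41. Polyadenylated RNA of SW480, an established human colon adenocarcinoma cell line, was sequenced from 3 Clover and 3 Z18trunc libraries. Both groups had been transduced with a lentivirus and kept under antibiotic selection. Clover cells expressed the fluorescent protein Clover from pLENTI CMV, and Z18trunc cells expressed a truncated ZC3H18, an RNA surveillance factor, in the same way. The construct was added to cells that kept their own ZC3H18 gene, its expression was set by the CMV promoter, and the methods describe lines made in biological triplicate. Of the 9 colon epithelium markers checked, EPCAM, KRT8, KRT18, CDX2 and VIL1 were above 1 TPM, KRT20, CDX1 and LGR5 were at 0 in each library, and CDH17 was at 0.03 TPM in 1 library and at 0 in the others. The 8 markers of other cell types summed to 4.09 to 5.14 TPM in Clover and 4.59 to 6.10 TPM in Z18trunc. PTPRC, PECAM1 and MLANA were at 0, and the means of CD3E and COL1A2 were below 1 TPM. In Clover and Z18trunc, means were 1.78 and 2.24 TPM for PMEL, 1.36 and 1.78 TPM for MITF, and 1.39 and 1.35 TPM for COL1A1. Libraries held 18226033 to 22463310 aligned fragments, and ZC3H18 itself went from 57.2 ± 5.39 TPM with Clover to 763 ± 31.2 TPM with Z18trunc (SD, n = 3), values in which the construct and the endogenous gene cannot be told apart.

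An ERV1 copy entered the germ line as a provirus, with an internal part that encoded viral proteins and a long terminal repeat (LTR) on each side. Most copies have since recombined to solitary LTRs or decayed into fragments. The LTRs carry promoter and polyadenylation sequences, and some were taken over as exons or regulatory elements of host genes. ERVMER34-1 is a known host gene built from an ERV1 envelope frame, and MER41 LTRs are known as regulatory elements near interferon-response genes. Repression of young copies by TRIM28, SETDB1 and DNA methylation, and decay of nuclear polyadenylated transcripts by the exosome with its cofactors, are both textbook routes that keep ERV RNA low.

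The 10359 loci had a median length of 422 bases and a median divergence from their consensus of 15.7%, against 13.3% for the 13868 other ERV1 loci in the tables. They comprised 8090 LTR and 2269 internal pieces. The median GC content was 42.4% (quartiles 38.7% and 46.0%), against 45.7% in other ERV1 loci. The 4 windows below are printed because the RNA values below turn on their loci or, for MER4-int, because the locus is near a position on chromosome 14 that the study named, which the window does not contain. Each is the central 300 bases of a locus in hg38, read 5′ to 3′ on the strand of the TE, with capitals for matches to AATAAA, the usual polyadenylation signal.
MER34-int in the ERVMER34-1 reading frame, chr4:52744178-52744477, minus strand: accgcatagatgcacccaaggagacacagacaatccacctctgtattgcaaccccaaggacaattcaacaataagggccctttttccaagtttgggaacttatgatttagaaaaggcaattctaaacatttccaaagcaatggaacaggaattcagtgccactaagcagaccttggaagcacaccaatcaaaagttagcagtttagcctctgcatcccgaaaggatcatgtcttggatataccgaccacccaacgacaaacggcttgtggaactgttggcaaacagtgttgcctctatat
MER57A-int in a RASSF8-AS1 exon, chr12:25946222-25946521, minus strand: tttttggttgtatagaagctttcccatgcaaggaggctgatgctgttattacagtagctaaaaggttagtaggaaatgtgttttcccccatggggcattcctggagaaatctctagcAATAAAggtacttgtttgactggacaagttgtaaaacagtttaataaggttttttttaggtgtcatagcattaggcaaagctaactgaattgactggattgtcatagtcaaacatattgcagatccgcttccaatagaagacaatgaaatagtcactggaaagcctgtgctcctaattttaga
MER66B outside genes, chr17:40472485-40472784, minus strand: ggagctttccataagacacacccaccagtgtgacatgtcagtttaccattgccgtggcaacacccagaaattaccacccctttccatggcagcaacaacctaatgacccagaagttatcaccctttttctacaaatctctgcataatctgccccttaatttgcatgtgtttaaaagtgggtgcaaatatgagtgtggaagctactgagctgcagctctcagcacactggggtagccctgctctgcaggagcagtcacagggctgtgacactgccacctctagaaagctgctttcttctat
MER4-int outside genes, chr14:105037964-105038263, plus strand: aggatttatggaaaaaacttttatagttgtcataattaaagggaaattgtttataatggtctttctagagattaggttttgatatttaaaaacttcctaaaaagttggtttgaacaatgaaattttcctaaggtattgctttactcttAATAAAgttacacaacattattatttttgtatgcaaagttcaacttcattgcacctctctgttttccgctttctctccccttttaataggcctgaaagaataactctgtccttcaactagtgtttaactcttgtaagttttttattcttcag

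The motif was not rare in these loci. Of 7140 MER-named ERV1 loci of at least 300 bases, 23.8% held AATAAA on the TE strand in the central 300 bases, against 22.7% of 10859 other ERV1 loci. The share was 47.7% of 285 windows in the MER61 series and 26.3% of 866 windows in the MER41 series. A match is a string of letters, not a shown site.

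To see where this RNA lay, fragments were counted on the strand of each TE and given as counts per 1000000 aligned fragments of the library (CPM). Own-strand fragments were found at 4683 of the 10359 loci, and the other 5676 had fragments on the opposite strand only. Of the 4683 loci, 47.5% had counts in 1 library only, and 484 had counts in all 6. MER-named ERV1 loci made up 42.8% of ERV1 loci but 27.3% to 31.9% of own-strand ERV1 CPM, and 14% to 14.9% of LTR-class CPM. The 12 most abundant loci held 43.9% of the CPM of all members. Between 71.2% and 75% of member counts were uniquely mapped.

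Most of the RNA was at loci that overlap exons of host genes. The 713 loci that overlapped a GENCODE exon on the same strand were 6.88% of loci and held 70.1% of member CPM. Untranslated regions (UTRs) alone, with 188 loci, held 45.4%. Non-coding exons with 498 loci held 14.4%, and coding sequence with 27 loci held 10.4%. Introns on the same strand held 14.2% in 2237 loci, and 2927 loci outside genes held 12.5%. An overlap of any length counted, so fragments at such exonic loci need not lie within the exon. Values of several host genes are given beside their loci. The values at a locus and of its host gene did not always move alike.

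**Figure D1:**
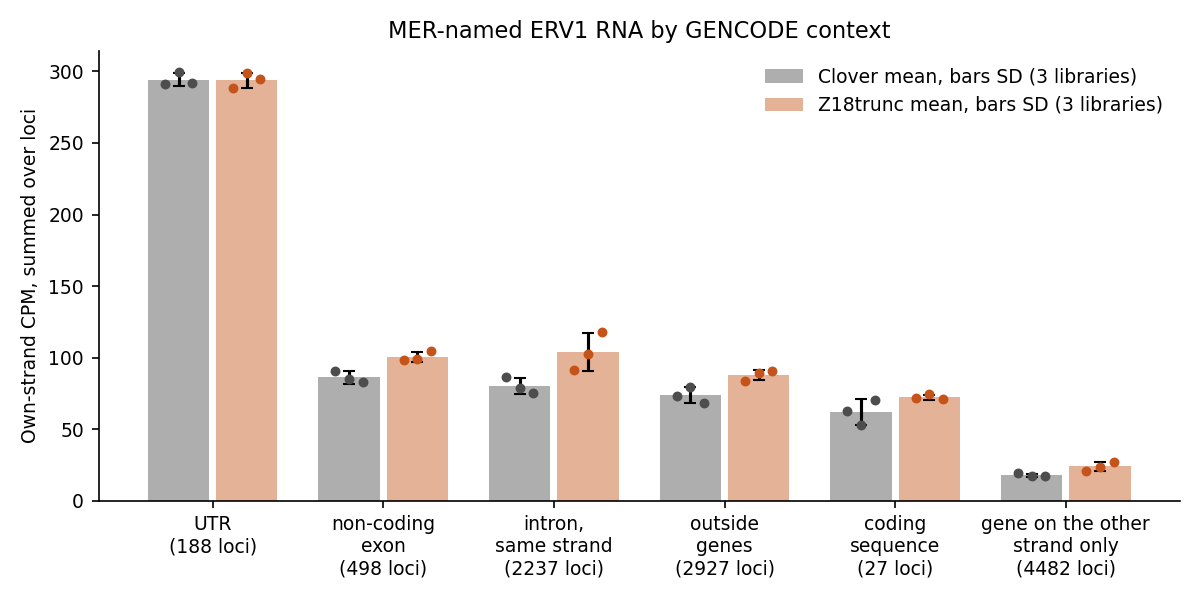
Own-strand CPM summed over MER-named ERV1 loci of each GENCODE context (vertical axis, linear from 0), with bars for the mean of 3 libraries, error bars for the SD and points for libraries. UTR loci sat at 294 CPM in both groups, while loci in introns rose from 80.2 to 104 CPM on average, without overlap of the groups.

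The 2 most abundant loci lay in the UTRs of APOBEC3C, a cytidine deaminase that restricts retroelements, and YWHAZ, a 14-3-3 adaptor protein. MER65C at chr22:39019077-39019516 (plus strand, APOBEC3C UTR) was at 65.1, 61.7 and 63.5 CPM in Clover and 56.5, 61.2 and 58.7 CPM in Z18trunc. The Z18trunc libraries were all below the Clover libraries, but the change was -0.11 log2 units (SE 0.10, edgeR adjusted p = 0.77). Reads of APOBEC3C can be divided with its paralogs, and 77.5% of counts at this locus were uniquely mapped. A second APOBEC3C UTR locus, MER49 at chr22:39020095-39020349, was at 21.1 ± 2.81 CPM in Clover and 19.6 ± 0.292 CPM in Z18trunc (SD, n = 3), with overlap. APOBEC3C itself was at 229 ± 3.70 TPM in Clover and 229 ± 4.47 TPM in Z18trunc (SD, n = 3).

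MER34B-int at chr8:100919702-100920019 (minus strand, YWHAZ UTR) was at 50.5, 50.7 and 55.4 CPM in Clover and 61.1, 63.8 and 59.0 CPM in Z18trunc. All Z18trunc libraries were above the Clover libraries, with a change of 0.23 log2 units (SE 0.10, edgeR adjusted p = 0.42) that was 0.06 with TMM scaling and with DESeq2. The host gene YWHAZ was at 201, 301 and 221 TPM in Clover and 364, 390 and 399 TPM in Z18trunc. Its Clover libraries differed among themselves by more than those of the locus, and its change of 0.69 log2 units (SE 0.15, limma adjusted p = 0.077) did not pass.

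ERVMER34-1, the envelope-derived gene, was read through 2 adjacent MER34-int pieces. The 910-base piece at chr4:52743873-52744782, from which a coding window is printed above, was at 25.4, 23.7 and 29.8 CPM in Clover and 31.0, 32.5 and 27.6 CPM in Z18trunc, with overlap. The 1338-base piece at chr4:52744841-52746178 was at 26.0, 19.2 and 27.9 CPM in Clover and 28.5, 30.5 and 29.1 CPM in Z18trunc, where the groups did not overlap. The log2 changes were 0.21 (SE 0.11) and 0.27 (SE 0.12), with edgeR adjusted p = 0.56 and 0.45. With TMM scaling they were 0.04 and 0.10, and with DESeq2 0.04 and 0.10. ERVMER34-1 went from 48.8 ± 6.73 to 58.9 ± 2.51 TPM (SD, n = 3), a log2 difference of 0.28 that did not pass (limma adjusted p = 0.17). Both pieces share one transcript and are not independent measurements.

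The locus in the UTR of PYGB, the brain form of glycogen phosphorylase, had the lowest unadjusted p among the abundant loci that were lower. MER57A-int at chr20:25296857-25297216 was at 30.1, 30.8 and 30.6 CPM in Clover and 26.8, 26.0 and 24.3 CPM in Z18trunc. The groups did not overlap, and the change was -0.25 log2 units (SE 0.11, edgeR adjusted p = 0.43), or -0.42 with TMM scaling, where the MER65C locus of APOBEC3C was at -0.28. PYGB was at 164 ± 8.0 TPM in Clover and 153 ± 5.26 TPM in Z18trunc (SD, n = 3), with overlap.

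The remaining abundant loci had means over the 6 libraries of 7.09 to 14.02 CPM. MER92B (chr5:157477737-157477977) and MER67C (chr5:157477976-157478162) adjoin in the UTR of ADAM19, a membrane metalloproteinase, and their log2 changes were -0.21 (SE 0.13) and -0.10 (SE 0.13). ADAM19 itself was at 76.0 ± 9.74 TPM in Clover and 79.1 ± 1.56 TPM in Z18trunc (SD, n = 3), with overlap. MER52C (chr19:32968799-32970009) lay in the UTR of CEP89, a centrosomal protein, with a change of -0.23 log2 units (SE 0.14). The gene CEP89 lay the other way, with 3.87 ± 0.475 TPM for Clover and 4.88 ± 0.315 TPM for Z18trunc (SD, n = 3), without overlap (log2 change 0.27, SE 0.09, limma adjusted p = 0.12). MER31B (chr22:50486061-50486466) lay in the UTR of ADM2, a peptide hormone, with 0.09 (SE 0.14), while ADM2 was at 32.2 ± 3.70 and 41.3 ± 5.65 TPM with overlap (log2 change 0.35, SE 0.13, limma adjusted p = 0.14). MER49 (chr11:71451265-71452186) lay in an exon of the non-coding gene ENSG00000254682, with 0.35 (SE 0.15), or 0.18 with TMM scaling. The edgeR adjusted p-values of these 5 loci ran from 0.43 to 0.88. MER66B at chr17:40472398-40472871 was the only 1 of the 12 outside annotated genes, at 12.02, 12.96 and 11.2 CPM in Clover and 12.7, 11.4 and 12.6 CPM in Z18trunc. The groups overlapped there, and no exon was annotated at its printed window.

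**Figure D2:**
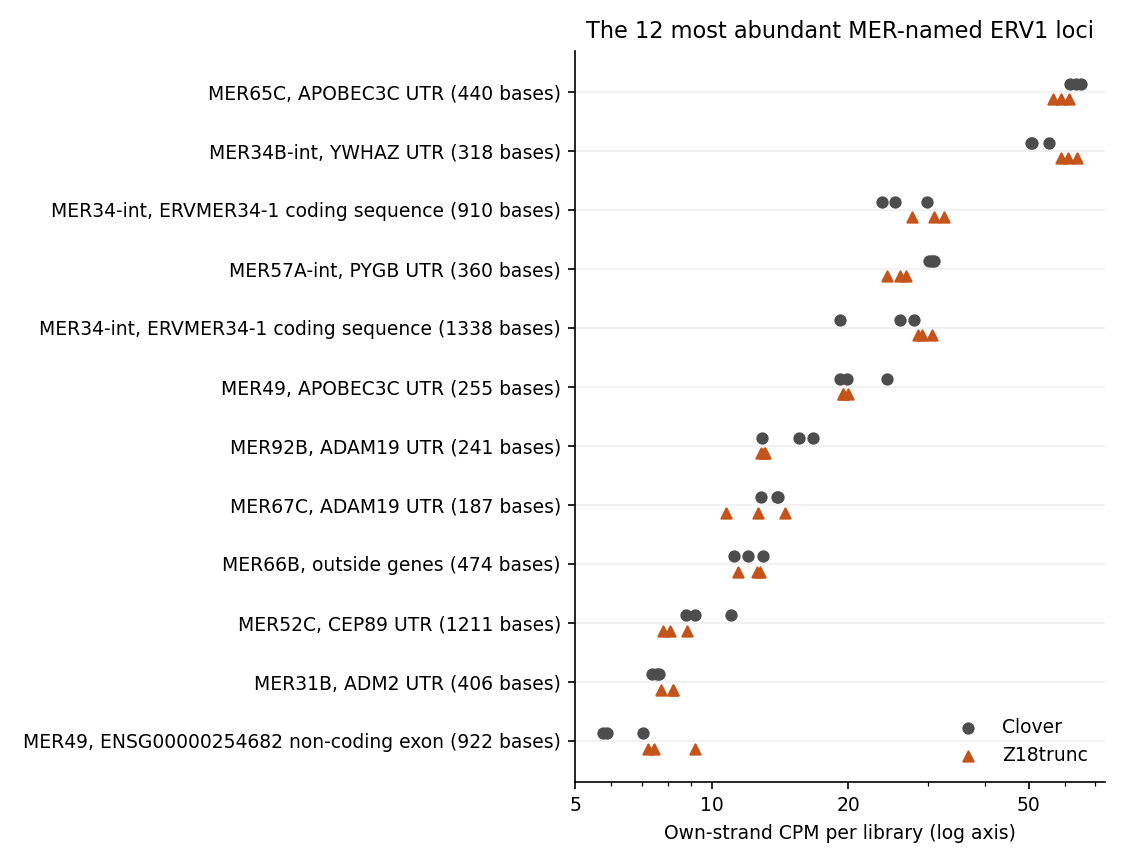
Own-strand CPM of the 12 most abundant loci (horizontal log axis) in each Clover (circles) and Z18trunc (triangles) library, labelled with subfamily, host gene and context. The groups did not overlap at 6 of the 12 loci, higher in Z18trunc at YWHAZ, the 1338-base ERVMER34-1 piece, ADM2 and ENSG00000254682 and lower at PYGB and the MER65C locus of APOBEC3C, against 26.8% in either direction of the 314 TE loci of at least 7.09 CPM.

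The summed own-strand RNA of all members was somewhat higher with Z18trunc. It was 623, 613 and 606 CPM in Clover and 654, 688 and 706 CPM in Z18trunc, or 614 ± 8.70 and 683 ± 26.2 CPM (SD, n = 3). The groups did not overlap, and the log2 ratio of the means was 0.15. TE counts of both strands per 1000000 aligned fragments were also higher, at 47022 ± 1600 in Clover and 53253 ± 2914 in Z18trunc (SD, n = 3), a log2 ratio of 0.18. Per 1000000 TE counts, the member sum had a log2 ratio of -0.03 with overlap. Thus the direction of the sum depended on whether it was set against all aligned fragments or against TE fragments.

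Loci with and without an exon moved by different amounts. Exonic loci summed to 442 ± 4.43 CPM in Clover and 467 ± 7.49 CPM in Z18trunc, a log2 ratio of 0.08. Loci without an exon summed to 178.5, 176 and 160 CPM in Clover and 196, 215 and 236 CPM in Z18trunc, a log2 ratio of 0.33. Per 1000000 TE counts, loci without an exon stayed higher without overlap (log2 ratio 0.15) and exonic loci were lower without overlap (-0.10). The log2 ratio of non-exonic to exonic CPM went from -1.37 ± 0.09 with Clover to -1.12 ± 0.12 with Z18trunc (SD, n = 3), a difference of 0.25 that library scaling cannot alter. Its two-sided exact permutation p was 0.1, the smallest that 3 against 3 libraries allow, and this contrast was chosen after the values were seen.

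By context, UTR loci were at 294 ± 4.47 CPM in Clover and 294 ± 5.21 CPM in Z18trunc (SD, n = 3). Introns on the same strand went from 86.5, 79.0 and 75.1 CPM to 91.2, 103 and 118 CPM (log2 ratio 0.37). Loci outside genes went from 72.9, 79.6 and 68.4 CPM to 83.7, 89.0 and 90.9 CPM (0.26), and non-coding exons from 90.75, 84.9 and 82.6 CPM to 98.3, 99.2 and 105 CPM (0.23). Loci with a gene on the other strand only went from 17.8 ± 1.19 to 23.98 ± 3.2 CPM (SD, n = 3; 0.43), and coding sequence from 61.9 ± 8.86 to 72.3 ± 1.82 CPM (0.22). Apart from UTRs, each context was without overlap per aligned fragment, as was the TE total. No share was taken over other groups of TE loci. Per 1000000 TE counts, introns (0.19) and loci with a gene on the other strand only (0.25) remained higher without overlap, UTRs were lower without overlap (-0.18), and the other 3 contexts overlapped.

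Set against all TE RNA, some series were higher, some lower and others overlapped. Per aligned fragment, 7 of 25 series were higher without overlap, 0 were lower and 18 overlapped. No share without overlap was taken over other groups of TE loci. The TE total was itself higher without overlap on this scale. MER41 summed to 28.8, 26.6 and 22.7 CPM in Clover and 31.8, 33.5 and 34.7 CPM in Z18trunc (log2 ratio 0.36). MER4 went from 79.0, 74.3 and 68.5 CPM to 82.8, 91.7 and 97.1 CPM (0.29). MER41 (0.18) and MER4 (0.11) also stayed higher without overlap per 1000000 TE counts.

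MER34, the series with the most RNA, went from 126, 119 and 137 CPM to 149, 157 and 147 CPM (log2 ratio 0.25), and 40.9% of it came from the YWHAZ locus. The ERVMER34-1 pieces held a further 28.3 and 26.9 CPM of its mean of 139 CPM over all libraries, so most of this series was RNA at exons of these host genes. The other series without overlap were MER39 (0.27), MER101 (0.28), MER61 (0.25) and MER52 (0.17), and these 4 and MER34 overlapped per 1000000 TE counts, where MER52 was at -0.01. MER65, of which 74.2% came from the APOBEC3C locus, was at 83.4 ± 3.17 CPM in Clover and 81.4 ± 2.81 CPM in Z18trunc (SD, n = 3). MER57 was at 62.7 ± 1.29 and 62.6 ± 1.60 CPM, with 44.9% from the PYGB locus. Per 1000000 TE counts, MER65 (-0.21), MER57 (-0.18), MER67 (-0.16) and MER49 (-0.12) were lower without overlap. The MER67C locus of ADAM19 held 51.4% of the MER67 CPM, and the MER49 locus of APOBEC3C held 42.5% of the MER49 CPM. On this scale too, no share was taken over other groups of TE loci.

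**Figure D3:**
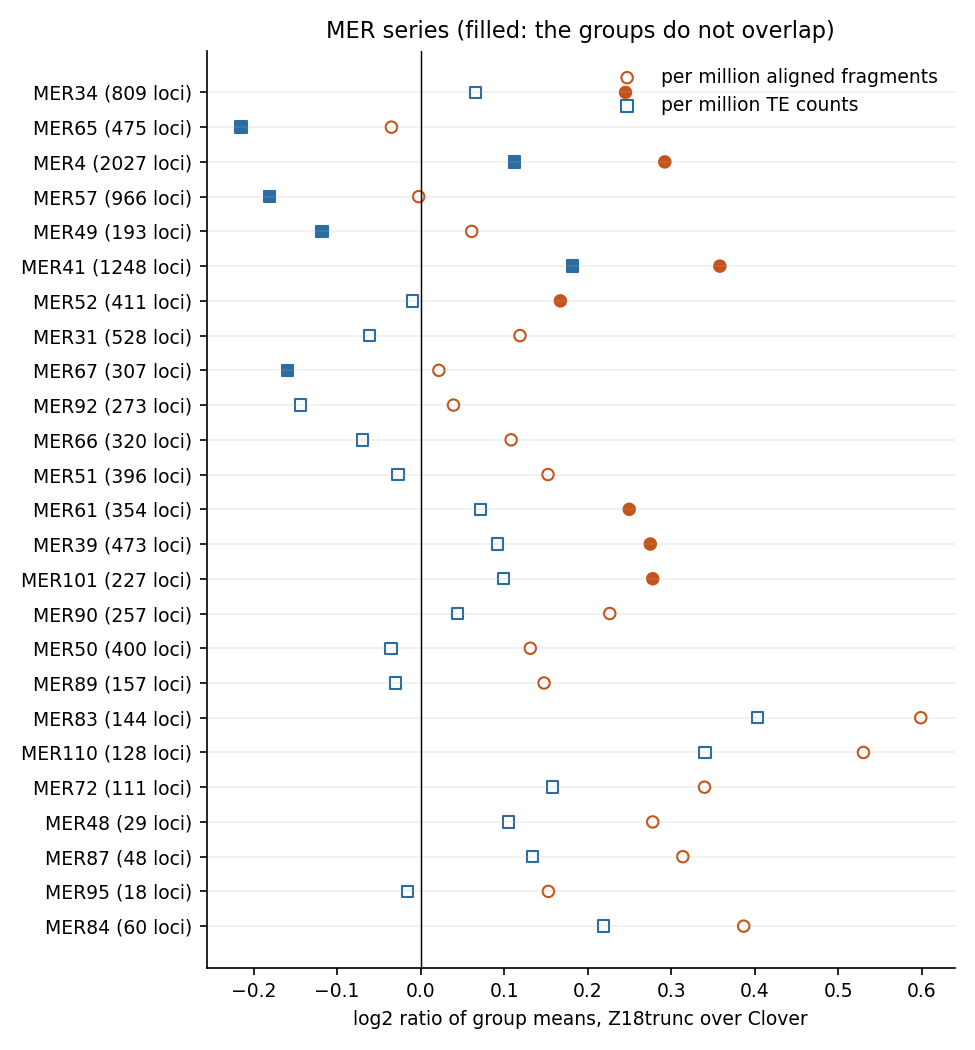
Log2 ratio of the group means, Z18trunc over Clover (horizontal axis), for each of the 25 series in order of abundance, per 1000000 aligned fragments (circles) and per 1000000 TE counts (squares), with filled symbols where the groups do not overlap. MER4 and MER41 are filled to the right of 0 on both scales, and MER65, MER57, MER49 and MER67 are filled to the left of 0 on the TE scale.

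Against the other ERV1 loci, the MER-named loci gained less. The other ERV1 loci went from 1342 ± 28.6 to 1732 ± 97.8 CPM (SD, n = 3; log2 ratio 0.37). The log2 ratio of member CPM to other ERV1 CPM was -1.12, -1.09 and -1.17 in Clover and -1.32, -1.41 and -1.29 in Z18trunc. The Z18trunc libraries were all lower, with a difference of -0.21 and a two-sided exact permutation p of 0.1, the smallest this design allows. Without HERVH-int, a comparison added after seeing the data, the difference was -0.11 (exact permutation p = 0.1). Among loci without an exon it was -0.16 with overlap (exact permutation p = 0.2).

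Subfamily sums were compared by edgeR's quasi-likelihood test over 898 TE subfamilies, and 100 of the 111 MER-named subfamilies had enough counts. None of the 100 passed an adjusted p of 0.05, against 1.89% of all subfamilies. Before adjustment, 22 were higher (22%) and 0 lower at p under 0.05, near the background of 24.6% higher and 0.0% lower over all subfamilies. DESeq2 called 0 of the 100, against 0.223% of all subfamilies, and before adjustment it had 0 higher and 3 lower at p under 0.05. The median log2 change was 0.25, against 0.21 over all subfamilies. With TMM scaling, which sets the median of all subfamilies to 0.01, the median of the 100 was 0.05. The unadjusted counts with TMM were 5 higher and 4 lower. No shares over all subfamilies are given for the unadjusted DESeq2 and TMM counts.

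The smallest adjusted p-values belonged to internal parts of MER61 and MER4 and to LTRs of MER41 and MER65. MER61-int was at 2.85, 2.90 and 3.13 CPM in Clover and 4.23, 4.17 and 5.001 CPM in Z18trunc, with a change of 0.59 log2 units (SE 0.17, edgeR adjusted p = 0.065). MER4-int, the subfamily of the chromosome 14 window, was at 13.8, 12.8 and 11.1 CPM in Clover and 15.0, 17.8 and 18.1 CPM in Z18trunc, with 0.43 (SE 0.13, edgeR adjusted p = 0.065). Neither subfamily had overlap between the groups. For MER61-int, named by its p in this same contrast, that is largely set by the choice. A share without overlap over all subfamilies was not taken.

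MER41C was at 1.60, 1.88 and 1.88 CPM in Clover and 2.58, 3.43 and 2.86 CPM in Z18trunc (log2 change 0.72, SE 0.21, edgeR adjusted p = 0.065), and 40.8% of it came from the TOLLIP-DT locus. MER65D was at 1.78 ± 0.274 and 2.87 ± 0.135 CPM (SD, n = 3; log2 change 0.70, SE 0.21, edgeR adjusted p = 0.068). MER41B went from 8.18 ± 0.958 to 10.4 ± 0.523 CPM (SD, n = 3), with 0.34 (SE 0.14, edgeR adjusted p = 0.13). In these 3 subfamilies the groups did not overlap, which for MER41C and MER65D is likewise largely set by their choice by p. MER4-int passed with uniquely mapped counts (log2 change 0.49, edgeR adjusted p = 0.031), and without Z18trunc replicate 1 it was among 5 subfamilies that passed (0.51, edgeR adjusted p = 0.022). In those 2 fits 6.65% and 9.28% of all TE subfamilies passed. With TMM scaling, the changes of MER4-int and MER41B were 0.22 and 0.14.

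In the 10 most abundant subfamilies, 24.2% to 91.5% of the CPM lay on 1 locus. MER65C (log2 change -0.09), MER34B-int (0.21, or 0.0082 with TMM scaling and 0.0034 with DESeq2), MER66B (0.05) and MER92B (-0.04) each had 78.0% to 91.5% of their CPM on 1 locus. MER34-int (0.23, or 0.030 with TMM scaling), MER49 (0.06), MER57A-int (-0.12), MER67C (0.03) and MER52C (0.10) had 42.5% to 69.8% there. MER34-int had a mean of 55.7 CPM over all libraries. Of this, the ERVMER34-1 pieces, which share a transcript, held 28.3 and 26.9 CPM, so its change is largely that of the ERVMER34-1 transcript. The edgeR adjusted p-values of these subfamilies ran from 0.16 to 0.89. MER4-int, the tenth, had 24.2% on its most abundant locus. A subfamily did not always have the sign of that locus, as MER49, MER67C and MER52C were above 0 and their most abundant loci, at -0.11, -0.10 and -0.23, were below it.

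Single loci were tested in the same way over 12453 TE loci with at least 30 counts over the 6 libraries. Of the members, 267 had such counts, 2.58% of the loci but 78.2% of the own-strand counts, and the other 10092 were not tested. None of the 267 passed the adjustment, against 0.201% of all loci, and the smallest edgeR adjusted p was 0.19. Before adjustment, 32 were higher and 4 lower at p under 0.05 (12% and 1.5%), where the background over all loci was 8.17% and 1.77%. DESeq2 called 0 of the 267, against 0.531% of 2072 TE loci. It gave an adjusted p for 52 of the 267, and before adjustment had 4 higher and 9 lower. The median log2 change of the 267 was 0.24, against 0.17 over all loci. With TMM scaling it was 0.07 against 0.00, with unadjusted counts of 12 higher and 12 lower. No shares over all loci are given for the unadjusted DESeq2 and TMM counts.

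Among the 267, the 147 exonic loci had a median log2 change of 0.14 and the 120 others 0.38. Over all tested TE loci, the medians were 0.12 with an exon and 0.25 without. Of the 120 loci without an exon, 92 were above 0 (76.7%), against 68.5% of all 5568 tested TE loci without one. Before adjustment, 17 of the 120 were higher (14.2%) and 0 lower at p under 0.05, against 529 (9.50%) and 77 of the 5568. Of the 147 exonic loci, 15 were higher (10.2%) and 4 lower, against 489 (7.10%) and 143 of 6885. Across the 267 loci, which share libraries, the change had a Spearman rho of -0.16 with mean CPM, -0.07 with divergence, 0.09 with length and -0.01 with GC content, all weak.

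**Figure D4:**
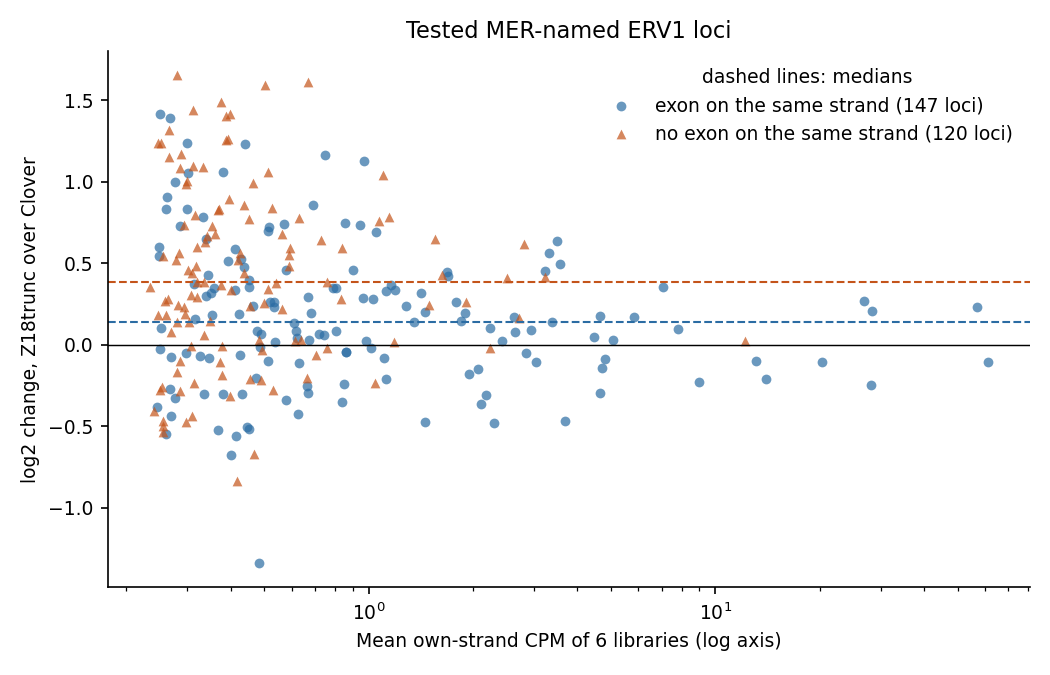
Log2 change, Z18trunc over Clover (vertical axis), against mean own-strand CPM of the 6 libraries (log axis) for the 267 tested loci, with circles for loci with an exon on the same strand and triangles for the others. The dashed medians are at 0.14 for 147 exonic loci and 0.38 for 120 other loci, and the loci above 20 CPM lie between -0.25 and 0.27.

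The 8 loci of smallest p were all higher with Z18trunc, and none passed the adjustment. MER57A-int at chr12:25945447-25947296, the window with an AATAAA printed above, lies in an exon of the antisense RNA RASSF8-AS1. It was at 2.81, 2.35 and 3.06 CPM in Clover and 4.50, 4.06 and 4.22 CPM in Z18trunc, without overlap (log2 change 0.64, SE 0.19, edgeR adjusted p = 0.19). RASSF8-AS1 as a gene was at 8.44 ± 0.203 TPM in Clover and 8.32 ± 1.11 TPM in Z18trunc (SD, n = 3).

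MER41C at chr11:1310272-1310793 lies in an exon of TOLLIP-DT, a divergent transcript of the TOLLIP gene. It was at 0.668, 0.575 and 0.560 CPM in Clover and 1.25, 1.76 and 1.0 CPM in Z18trunc, without overlap (log2 change 1.13, SE 0.34, edgeR adjusted p = 0.23). MER41-int at chr8:142960993-142962730 lies outside genes and was at 0.890, 0.784 and 0.458 CPM in Clover and 1.38, 1.70 and 1.38 CPM in Z18trunc (1.04, SE 0.32, edgeR adjusted p = 0.23). The groups did not overlap at either locus, and each rested on 9 to 32 fragments per library.

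MER67C at chrX:47559958-47560519, in an intron of the non-coding gene ENSG00000289890, had 3, 6 and 6 fragments in Clover and 23, 12 and 12 in Z18trunc (log2 change 1.59, SE 0.49, edgeR adjusted p = 0.23). MER110A at chr11:59143711-59144163, in the UTR of FAM111A, a protease with a role in DNA replication and host restriction of viruses, had 10, 3 and 15 fragments in Clover and 19, 24 and 20 in Z18trunc (1.16, SE 0.42, edgeR adjusted p = 0.32). The gene FAM111A was at 15.9, 16.1 and 19.7 TPM in Clover and 25.3, 27.1 and 27.4 TPM in Z18trunc, and its change of 0.61 log2 units (SE 0.10, limma adjusted p = 0.077) did not pass. Neither locus had overlap between the groups.

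MER57-int at chr7:146319-148890, in an exon of LINC03015, went from 2.66 ± 0.175 to 3.95 ± 0.295 CPM (SD, n = 3; log2 change 0.56, SE 0.19, edgeR adjusted p = 0.27). MER52C at chr19:46821460-46822578, outside genes, went from 2.23 ± 0.405 to 3.39 ± 0.504 CPM (SD, n = 3; 0.62, SE 0.21, edgeR adjusted p = 0.27). MER4B at chr2:111253610-111254209, in an intron of MIR4435-2HG, was the only 1 of the 8 whose groups overlapped, at 0.390, 0.483 and 0.102 CPM in Clover and 0.375, 0.769 and 1.90 CPM in Z18trunc. Its change of 1.61 log2 units (SE 0.51, edgeR adjusted p = 0.24) drew on Z18trunc replicate 3, 59.6% of its counts were uniquely mapped, and MIR4435-2HG has a near-identical copy among which reads can be divided. MIR4435-2HG itself was at 254 ± 10.0 TPM in Clover and 241 ± 5.46 TPM in Z18trunc (SD, n = 3).

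**Figure D5:**
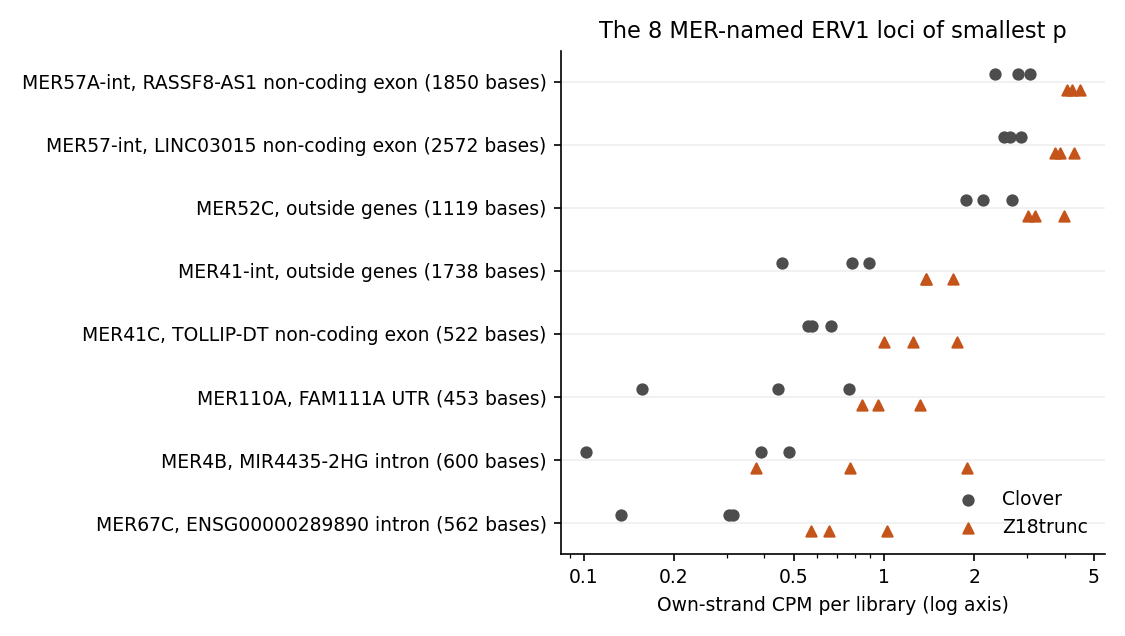
Own-strand CPM (horizontal log axis) of the 8 tested loci of smallest p in each Clover (circles) and Z18trunc (triangles) library. The loci were chosen by p in this same contrast, so that groups lie apart at 7 of them is set by the choice; they overlap at the MER4B locus of MIR4435-2HG, where Z18trunc ran from 0.375 to 1.90 CPM.

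Among MER4-int loci with a row in at least 1 library, those nearest to the chromosome 14 position that the study named had almost no fragments in SW480. Neither contains the position itself, and a copy without a row in any library would not be listed. The locus at chr14:105033004-105033364 does hold matches to qPCR primers that the study used for its MER4-int transcript. MER4-int at chr14:105033004-105033364 and at chr14:105037813-105038415, both outside genes, each had 1 own-strand fragment in Clover replicate 2 and 0 in the other 5 libraries. A count of 0 allows up to 3 fragments, or 0.134 to 0.165 CPM depending on the library, so a difference between the groups was not detectable there at this depth. Such limits cover counting error only.

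Loci were also ordered by FPKM, with missing values as 0, and counted where the groups were fully apart, which needs no model. Of 4683 loci, 103 were higher in all Z18trunc than in all Clover libraries (2.20%) and 52 were lower (1.11%). Over 38833 LTR-class loci these shares were 2.21% and 1.1%, so the members' shares were near the background. Among the 267 tested loci, 29 were apart upward (10.9%) and 8 downward (3.0%), against 9.83% and 3.73% of all 12453 tested TE loci, again near the background.

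Genes linked to MER-named ERV1 biology were taken from lists chosen with earlier results known, and 13300 genes were tested with limma on log2(TPM + 1). Of those genes 0.015% passed an adjusted p of 0.05, and the median log2 change was 0.11. Of 8 interferon-linked genes near MER41 copies, 7 were tested and 0 passed, with a median of 0.12. APOL1, IFI6, SECTM1, STAT2, IRF1 and IRF9 overlapped, with log2 changes from -0.10 to 0.26, and AIM2, a DNA sensor, was at 0 TPM.

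Of 12 genes that silence ERV1 copies, 10 were tested and 0 passed, with a median log2 change of 0.18. TRIM28, the corepressor of zinc-finger proteins, was at 618 ± 28.3 TPM in Clover and 581 ± 36.3 TPM in Z18trunc (SD, n = 3). SETDB1, its H3K9 methyltransferase partner, was at 11.3 ± 1.14 and 13.3 ± 1.198 TPM, without overlap, and ATF7IP, which binds SETDB1, at 10.2 ± 1.69 and 13.9 ± 1.15 TPM (limma adjusted p = 0.099). Of 10 nuclear surveillance genes, ZC3H18 was the only 1 that passed. Its rise was set by the design, as the construct expresses it. The other 9 had log2 changes from 0.04 to 0.55, and all of them but SRRT were higher without overlap, against 30.1% of all genes tested. ZCCHC8, the scaffold of the NEXT complex, was at 6.21 ± 0.668 and 8.66 ± 0.635 TPM (SD, n = 3), and MTREX, the exosome helicase, at 14.7 ± 1.11 and 19.8 ± 4.39 TPM. Whether the levels of these genes bear on the loci was not tested.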

How the data were processed

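SW480 cells carrying pLENTI CMV Clover (3 libraries) or Z18trunc (3 libraries) were grouped by the sample titles. Per the labels, RNA was polyA-selected, libraries were stranded and reads were set against hg38. Per the labels, reads were trimmed with cutadapt 4.6. The versions of SQuIRE and StringTie behind these tables are not given in the sources used here.

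The authors ran SQuIRE to make the deposited TE tables, which hold whole-number counts of uniquely mapped fragments per locus and strand. They also hold the authors' estimated counts, in which multiply mapped fragments had been shared among loci, so near-identical copies can take each other's fragments. The deposited FPKM values divide the estimated count by the stretch covered in that library and by its aligned fragments. The authors' gene tables give TPM, normalized within each library, and no counts.

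A locus was counted on its own strand. CPM was the estimated count per 1000000 aligned fragments, which ranged from 18226033 to 22463310. A count of 0 allows up to 3 fragments, for counting error only. Loci and subfamilies with at least 30 counts over 6 libraries were rounded and fitted with edgeR 4.0.16 in R 4.3.3, with aligned fragments as library size and no TMM factor, and Benjamini-Hochberg adjusted p-values, over every tested locus or subfamily of 4 TE classes, were read at a threshold of 0.05. Genes with mean TPM of at least 1 were tested by limma 3.58.1 on log2(TPM + 1), a scale that understates changes of low genes. Single values were compared by two-sided exact permutation tests. Context came from GENCODE 44 with bedtools 2.31.1 and sequence from hg38 with samtools 1.23.1. Alternatives were TMM, DESeq2 1.42.0, uniquely mapped counts, other filters, the opposite strand, other denominators, a replicate block and fits without 1 library. The main edgeR fits of loci and subfamilies were checked on simulated counts and the main limma fit on simulated TPM, while the alternatives were not.

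Members, gene lists and tests were chosen with earlier results of these data known. Named loci were the 12 with the highest mean CPM, the 8 with the smallest p and 2 MER4-int loci. These 2 were the nearest, among those with a row in at least 1 library, to a chromosome 14 position named by the study, which neither contains. Named subfamilies were the 10 with the highest mean CPM, MER4-int and MER41B, and those of smallest p were named after their values were seen. Named genes were the lists and the host genes of named loci. The contrast of loci with and without an exon and the comparison without HERVH-int were added after seeing the data. Within a group, libraries were further apart than counting noise (chi-square per degree of freedom 1.63 to 1.94). The titles number the libraries as replicates, and p-values measure the spread between them, which may be partly technical. A gene of the interferon-linked list and the sequence of a locus are not reported here.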

Additional observations from a re-analysis of the deposited data

Results flagged for a closer look

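Fragments on the strand opposite to the TE lie outside the own-strand measurement and stood above the Clover level at the MER-named ERV1 loci. Over 6308 loci they summed to 321, 288 and 277 CPM in Clover and 329, 350 and 382 CPM in Z18trunc, or 295 ± 22.9 and 353.8 ± 26.2 CPM (SD, n = 3). The groups did not overlap, and the log2 ratio of the means was 0.26. Loci with a gene on the other strand only held 208 CPM of the Clover sum and 249 CPM of the Z18trunc sum, again without overlap. Whether transcripts of those genes make up these fragments was not tested.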

How the results depend on the processing

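No MER-named ERV1 locus passed the adjustment under any of the 14 alternatives run, against 0.00809% to 0.942% of all TE loci. Among subfamilies, 1 of 93 passed with uniquely mapped counts (6.65% of all TE subfamilies did) and 9 of 102 on the opposite strand (12.6% of all). Leaving out each library gave 0 to 5, with the 5 of 97 (MER4-int, MER41C, MER4A1, MER61-int and MER83) passing without Z18trunc replicate 1, where 9.28% of all passed. The log2 ratio of the member sum, 0.15, was 0.25 without the 10 most abundant loci, 0.26 on the opposite strand, 0.33 for loci without an exon and -0.026 per 1000000 TE counts, and 0.13 to 0.18 without any 1 library. The fold relative to other ERV1 loci kept its direction in each of its alternatives, from -0.24 to -0.18 without any 1 library, and overlapped between groups without the 10 most abundant loci (-0.12, exact permutation p = 0.2). The difference between loci without and with an exon was 0.19 without those 10 loci and 0.19 to 0.30 without any 1 library. Loci apart by rank numbered 155, and 37 with at least 30 counts, where fewer loci are counted. The cause of the other moves was not tested.

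Same-numbered Clover and Z18trunc libraries did not visibly deviate together (r of -0.01, -0.01 and -0.04 over 12453 loci), and the main fits used no pairing. The titles do not say whether same-numbered libraries were made together, and these correlations cannot exclude it. With a replicate block, the member sum changed by 0.15 on the log2 scale, the fold relative to other ERV1 loci was -0.21 (exact permutation p = 0.25), and 0 loci and 0 subfamilies passed.

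Of 310 values of named loci and subfamilies under the alternatives, 288 kept direction and side of the threshold, 2 passed it (both MER4-int) and 20 turned direction, in 8 of 31 named items. With TMM and DESeq2 in turn, the log2 changes of loci were -0.15 and -0.15 for MER66B on chr17:40472398 and -0.078 and -0.075 for MER31B on chr22:50486061. Those of subfamilies were -0.14 and -0.15 for MER49, -0.18 and -0.18 for MER67C, -0.10 and -0.10 for MER52C and -0.15 and -0.16 for MER66B, and MER92B was 0.026 with uniquely mapped counts. Without any 1 library, the MER49 locus chr22:39020095 ran from -0.17 to 0.0081, the MER66B locus from -0.027 to 0.077, and the subfamilies MER67C from -0.089 to 0.11, MER92B from -0.14 to 0.039 and MER66B from -0.0079 to 0.10. Depth limits the untested 10092 loci, most of which had fragments in few libraries.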
